A study of Mus musculus with 191 samples.

Results

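Immediate early genes are switched on within minutes of a stimulus, without new protein synthesis, and 10 of them were followed here by name through chronic ethanol exposure and withdrawal in mice: Fos, Fosb, Jun, Junb, Egr1, Egr2, Arc, Nr4a1, Dusp1 and Ier2. They were found by their symbols in the array annotation, which gave 1 probe each for 8 of the 10 among the 25697 probes of the array. Nr4a1 and Ier2 had no annotated probe and are not analysed here. Male C57BL/6J mice aged 10 to 12 weeks received either 4 cycles of chronic intermittent ethanol (CIE) vapor (treated) or air (control). On each of the 4 days of a cycle, treated mice were injected with ethanol at 1.6 g/kg and pyrazole at 1 mmol/kg and then spent 16 h in vapor. Control mice received saline and the same dose of pyrazole, an inhibitor of alcohol dehydrogenase, so both groups carried that drug. Tissue was collected 0, 8 or 120 h after vapor ended, each mouse serving 1 time point, from the liver and from 3 brain regions: the prefrontal cortex (PFC), the amygdala (AMY) and the nucleus accumbens (NAC). Every group of 1 tissue, treatment and time held 8 mice with 1 array each, apart from 7 liver controls at 0 h.

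The transcripts of these genes serve as a record of recent cell activity. Calcium entry and growth factor receptors drive kinases of the ERK cascade, which phosphorylate factors bound to serum response and cyclic AMP response elements in the promoters. Fos, Fosb, Jun and Junb encode subunits of the AP-1 transcription factor, Fos-family proteins pairing with Jun-family proteins. Egr1 and Egr2 encode zinc finger transcription factors, Arc encodes a protein of excitatory synapses that takes part in the removal of glutamate receptors, and Dusp1 encodes a phosphatase that switches off mitogen-activated protein kinases. In the brain, neuronal firing is the usual trigger, and in the liver, injury, stress and growth signals are.

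Median array intensities lay between 90.26 and 126.2 over the 4 tissues, and 10530 to 12835 probes passed the detection filter of a tissue (signal above background, at a detection p up to 0.05, on over 80% of its arrays). The labels were set against tissue markers: 8 of 8 hepatocyte markers passed in liver, 6 of 9 striatal markers in NAC, 4 of 6 cortical excitatory markers in PFC and 6 of 6 amygdala markers in AMY. Regional markers were not exclusive, since 6 striatal and 4 cortical markers passed in AMY too. Brain punches hold many cell types, so fewer cells of a type and less RNA per cell cannot be told apart. All 8 member probes passed in the 3 brain regions. In liver 4 passed (Jun, Junb, Egr1 and Dusp1). Levels below are normalized intensities, that is, fluorescence in arbitrary units after quantile normalization within 1 tissue, and fold changes are log2 values of treated over control with the standard error (SE). A gene passed where limma's Benjamini-Hochberg adjusted p over all probes of the tissue was 0.05 or lower. Per the study's methods, groups were counter-balanced over the BeadChips, each of which held 8 arrays. The chip each array was on was not given in the sources used here, so no batch could be tested.

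Promoters of 7 of the 10 genes were in the RefSeq table of build GRCm38.p6. The table held 5 windows for Egr2, and no rule set which is shown. Matches differ between them: the most upstream window (67535249 to 67535548) held none, the next (67537316 to 67537615) a CArG box but no half-site, and the 3 others, the one shown included, the same kinds of match. A set of 5 genes is printed as examples of the results: Jun rose in all 4 tissues at 0 h (with limits given below), Fosb in PFC at 8 h, Fos and Egr2 varied with the individual mouse, and Dusp1 changed over time in control livers. Other members shared some of these traits. Arc also varied with the mouse, and Egr1 and Junb also changed over time in control livers. Each runs 5′ to 3′ from 250 bases before to 50 after the annotated start, on the gene's strand. Capitals mark matches, on either strand, to the cyclic AMP response element TGACGTCA or its half-site TGACG, the AP-1 site TGANTCA, the AP-1-like element TGACATCA, the EGR site GCGNGGGCG and the CArG box, the core of the serum response element.
Jun, chr4:95052173-95052472, minus strand: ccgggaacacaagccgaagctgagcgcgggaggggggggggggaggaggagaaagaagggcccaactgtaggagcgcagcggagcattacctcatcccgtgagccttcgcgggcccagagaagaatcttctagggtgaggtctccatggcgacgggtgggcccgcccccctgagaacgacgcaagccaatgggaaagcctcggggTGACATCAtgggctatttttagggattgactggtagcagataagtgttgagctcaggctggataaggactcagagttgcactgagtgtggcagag
Fosb, chr7:19309996-19310295, minus strand: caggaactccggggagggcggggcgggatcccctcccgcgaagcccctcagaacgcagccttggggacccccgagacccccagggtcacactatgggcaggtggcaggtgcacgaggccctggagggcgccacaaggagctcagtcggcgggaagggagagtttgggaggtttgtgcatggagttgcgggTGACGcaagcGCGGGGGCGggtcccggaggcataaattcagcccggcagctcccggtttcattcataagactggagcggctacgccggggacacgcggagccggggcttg
Fos, chr12:85473640-85473939, plus strand: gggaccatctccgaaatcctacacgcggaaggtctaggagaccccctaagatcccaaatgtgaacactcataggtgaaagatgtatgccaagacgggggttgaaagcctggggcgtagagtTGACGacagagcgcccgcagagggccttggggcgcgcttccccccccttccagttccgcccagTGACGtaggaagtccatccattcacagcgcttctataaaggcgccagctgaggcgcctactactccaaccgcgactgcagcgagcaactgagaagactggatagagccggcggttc
Egr2, chr10:67537619-67537918, plus strand: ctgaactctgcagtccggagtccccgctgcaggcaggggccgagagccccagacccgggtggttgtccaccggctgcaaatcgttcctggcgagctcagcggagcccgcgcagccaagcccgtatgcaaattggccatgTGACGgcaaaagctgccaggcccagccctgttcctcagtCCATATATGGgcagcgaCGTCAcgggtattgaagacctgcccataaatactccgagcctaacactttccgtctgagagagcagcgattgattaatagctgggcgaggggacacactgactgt
Dusp1, chr17:26508423-26508722, minus strand: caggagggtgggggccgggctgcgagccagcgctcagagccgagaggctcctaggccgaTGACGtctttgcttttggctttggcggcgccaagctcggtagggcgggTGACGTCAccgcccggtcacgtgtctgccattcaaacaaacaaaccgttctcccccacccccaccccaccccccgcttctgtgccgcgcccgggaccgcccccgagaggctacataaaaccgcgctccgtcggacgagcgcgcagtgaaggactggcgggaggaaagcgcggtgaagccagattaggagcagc

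The Jun window held the AP-1-like element, which 3.62% of the 32851 promoters of the table hold, and no match to the other 5 motifs. That element was added after the Jun promoter had been seen, so its match there was known beforehand. The Dusp1 window held the full cyclic AMP response element, found in 1.79% of promoters, with a further half-site apart from it. Half-sites, found in 20.8% of promoters, stood at 2 positions in Fos, at 2 in Egr2 and at 1 in Fosb. The Egr2 window also held a CArG box, found in 1.63% of promoters, and the Fosb window an EGR site, found in 5.55%. The AP-1 site itself, in 7.81% of promoters, was in none of the 5 windows. A match is a run of letters and not a measured binding site.

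Jun (probe ILMN_2646625, chr4:95049036-95052222 in GRCm38.p6), the AP-1 subunit that pairs with Fos proteins, was the member that rose with CIE in every brain region at 0 h. In AMY its intensity ran from 215.8 to 305.2 with a median of 261.2 in the 8 treated mice, against 185.5 to 234.2 with a median of 202.2 in the 8 control mice. Of the treated mice, 7 lay above the highest control. In NAC the treated values were 177.7 to 244.8 (median 208.7) against 143.6 to 175.4 (median 158.2) in control mice, and these groups did not overlap. In PFC they were 251.0 to 410.7 (median 297.6) in treated and 171.6 to 262.1 (median 231.0) in control mice, with 5 treated mice above the highest control. Jun was thus higher by 0.36 ± 0.0615 on the log2 scale for AMY (limma, adjusted p = 0.00439), by 0.38 ± 0.0577 for NAC (0.0016 after adjustment) and by 0.47 ± 0.111 for PFC (0.0399 after adjustment). Jun was 1 of 8 members called in AMY, where 3.88% of all probes were called, and 1 of 8 in PFC, where 1.48% were. In NAC, Jun and Egr1 made 2 of 8, beside 7.3% of all probes. The AMY and NAC calls held with any single array left out, whereas the PFC call was lost without any 1 of 11 arrays, those of control mice 66, 20, 26, 34, 42, 50 and 58 and treated mice 1, 9, 15 and 57, with log2 fold changes of 0.4145 to 0.4892 and adjusted p values up to 0.0799, and with no detection filter.

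At 8 h Jun remained higher in 2 regions. In AMY treated mice had 247.2 to 309.2 (median 266.4) and control mice 209.7 to 258.0 (median 227.0), a log2 fold change of 0.22 ± 0.0514 (adjusted p = 0.0237), and Jun was 1 of 8 members called beside 2.88% of probes. In NAC treated mice had 158.5 to 205.3 (median 189.3) and control mice 149.3 to 185.6 (median 159.1), a log2 fold change of 0.20 ± 0.057 (adjusted p = 0.0418), 1 of 8 members beside 6.94% of probes. The groups overlapped in both regions. Without control mouse 36 or treated mouse 33 the AMY call was lost (adjusted p = 0.0541 and 0.0513, log2 fold change 0.21 either way). The NAC call was lost without any 1 of 11 arrays (control mice 44, 10, 12, 36, 52 and 60, treated mice 3, 11, 33, 49 and 67), with adjusted p values of 0.0551 to 0.086, and with the authors' processed values. In PFC the medians were 250.6 in treated and 237.4 in control mice (log2 fold change 0.06 ± 0.0401, adjusted p = 0.393). At 120 h Jun medians in treated mice were 191.6 in AMY, 151.0 in NAC and 195.1 in PFC, against 198.9, 151.7 and 214.0 in control mice, and at that time no member and 0% of probes passed in AMY, NAC, PFC or liver by limma. At an unadjusted p of 0.05, 1 of 8 members in NAC, 1 of 8 in PFC and 0 in AMY and liver were below the threshold at 120 h, as were 4.57% (NAC), 3.41% (PFC), 3.05% (AMY) and 8.31% (liver) of all probes.

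**Figure D1:**
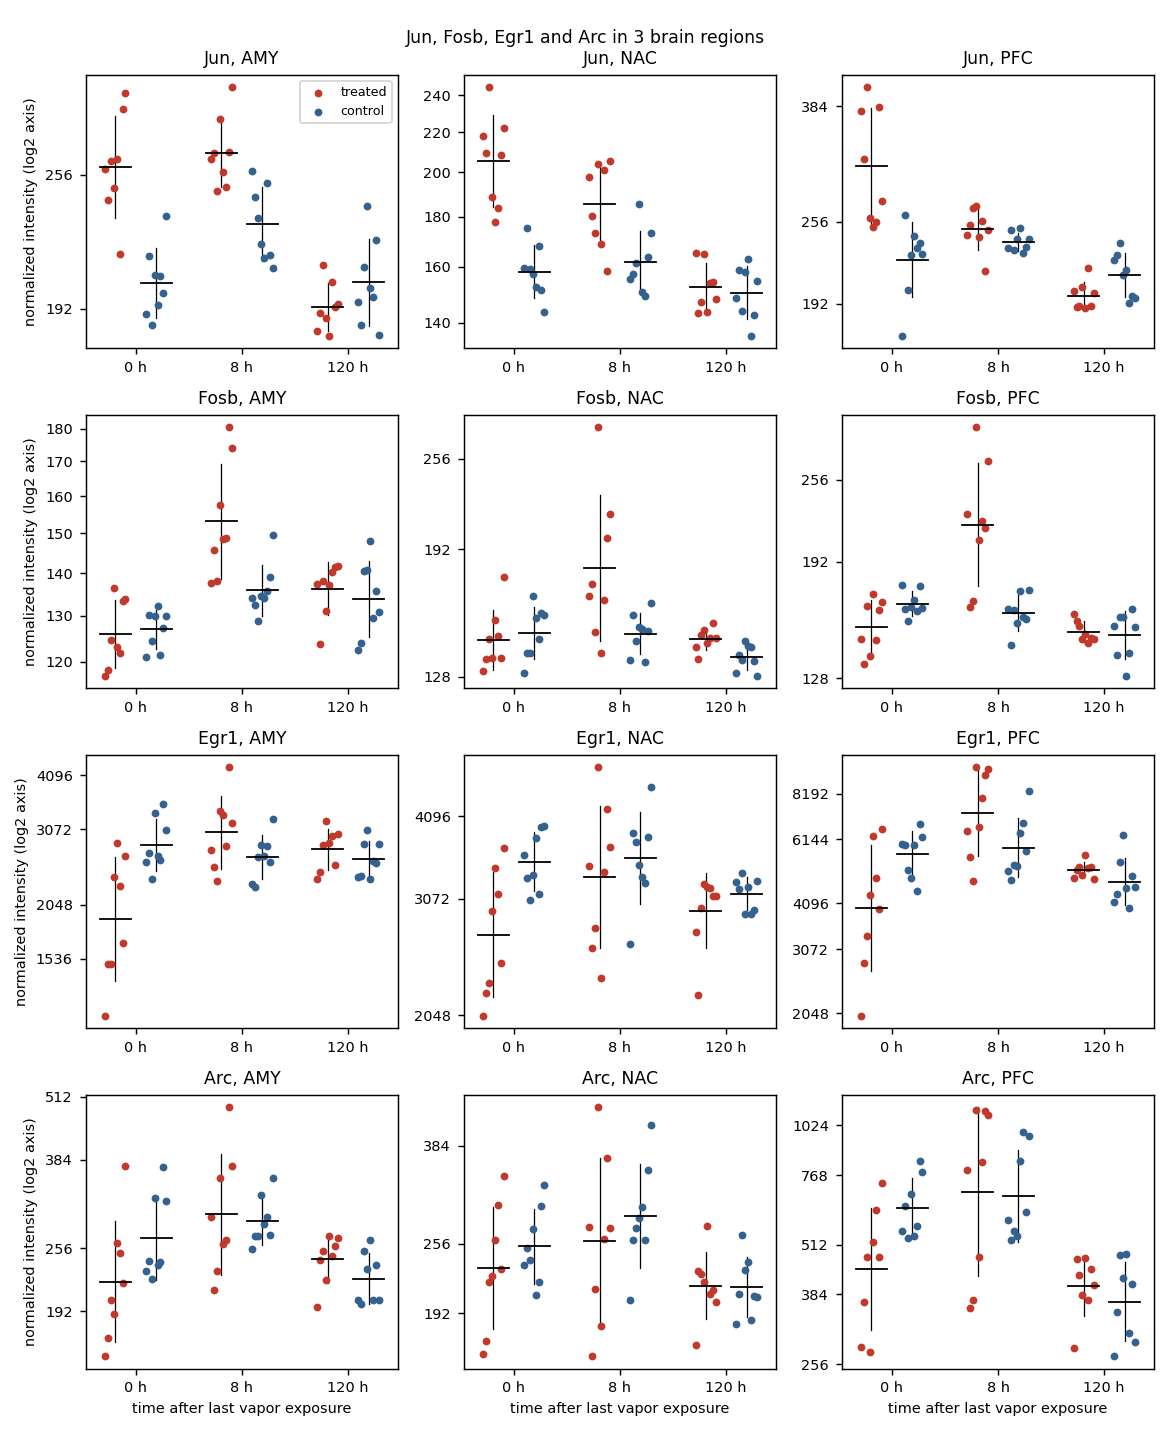
Normalized intensity (log2 axis, arbitrary units) of Jun, Fosb, Egr1 and Arc in AMY, NAC and PFC at 0, 8 and 120 h, 1 point per mouse, treated left of control, with the mean of the log2 values and 1 SD as black lines (n = 8 each). Treated NAC points for Jun at 0 h, 177.7 to 244.8, lie above all control points, and treated Egr1 points at 0 h reach below every control point in each region.

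Egr1 (probe ILMN_2662926, chr18:34861207-34864956), a zinc finger factor whose transcript is high in resting cortex, went the other way at 0 h. In NAC it ran from 2042 to 3660 (median 2697) in treated mice and from 3060 to 3957 (median 3460) in control mice, and 5 treated mice lay below the lowest control. It fell by 0.37 ± 0.106 on the log2 scale (adjusted p = 0.0414). That call was lost without any 1 of 9 arrays (control mice 66, 26, 34, 50 and 58, treated mice 1, 9, 15 and 57), with log2 fold changes of -0.38 to -0.31 and adjusted p values up to 0.0876, and with median scaling or no detection filter. In AMY the values were 1129 to 2845 (median 1967) in treated and 2353 to 3514 (median 2679) in control mice, again with 5 treated mice below all controls, and the log2 fold change was -0.57 ± 0.16 (adjusted p = 0.0507). In PFC they were 2014 to 6551 (median 4134) in treated and 4419 to 6747 (median 5921) in control mice, with 5 treated mice below all controls and a log2 fold change of -0.49 ± 0.192 (adjusted p = 0.195). Treated mice also differed more among themselves: the SD of log2 Egr1 was 0.477 in treated against 0.202 in control mice in AMY, 0.314 against 0.147 in NAC and 0.576 against 0.208 in PFC.

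Arc, Fos and Egr2 did not pass in any region at 0 h. Arc (ILMN_2597827, chr15:74669081-74672570) in PFC was 274.3 to 732.8 (median 477.8) in treated and 532.9 to 834.3 (median 606.3) in control mice, with 6 of 8 treated mice below the lowest control and a log2 fold change of -0.51 ± 0.179 (adjusted p = 0.141). Its log2 fold changes in AMY and NAC were -0.29 ± 0.15 and -0.13 ± 0.13. Fos (ILMN_2750515, chr12:85473890-85477274) in AMY was 115.9 to 267.2 (median 155.0) in treated and 170.7 to 233.8 (median 185.9) in control mice, and 6 treated mice lay below all controls while 1 lay above them (log2 fold change -0.26 ± 0.122, adjusted p = 0.244). In PFC its log2 fold change was -0.28 ± 0.181 and in NAC -0.01 ± 0.106. Egr2 (ILMN_2623983, chr10:67534469-67542188) had 5 of 8 treated PFC mice below all controls (log2 fold change -0.26 ± 0.167, adjusted p = 0.435). Dusp1 (ILMN_2622983, chr17:26505591-26508472) had differences of 0.19 ± 0.0937 for AMY, 0.11 ± 0.0753 for NAC and 0.10 ± 0.108 for PFC, and Junb (ILMN_1220034, chr8:84976909-84978748) of 0.0028 ± 0.0919, 0.09 ± 0.0557 and -0.13 ± 0.0895, none of them past the threshold. Over the 8 members the median log2 fold change at 0 h was -0.0457 in AMY, -0.0228 in NAC and -0.195 in PFC, beside -0.000919, -0.00265 and -0.00585 over all probes.

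Other cell markers moved with the same samples. In NAC at 0 h, 3 of 7 measured oligodendrocyte markers were lower in treated mice and 3 of 7 measured thalamic markers were higher. The oligodendrocyte markers summed to 15580 to 21450 in treated and 15610 to 23140 in control mice, and the thalamic markers to 1487 to 2235 in treated and 1399 to 1637 in control mice. Hba-a1, a hemoglobin gene and the only red cell marker of 5 measured in AMY and NAC, was lower in treated mice at 0 h. Treated mice had 229.2 to 871.4 in AMY and 270.0 to 1133 in NAC, against 447.7 to 1780 and 432.5 to 2113 in control mice. In AMY at 0 h, 2 of 7 thalamic markers were lower (3488 to 4317 in treated and 3523 to 4877 in control mice in sum) and 1 of 6 amygdala markers was higher (2017 to 2648 in treated and 1886 to 2162 in control mice). In PFC at 0 h, 1 of 7 thalamic markers was higher, the list summing to 2710 to 7808 in treated and 2396 to 3786 in control mice. The 2 red cell markers measured in PFC summed to 879.0 to 3510 (median 2497) in treated and 1316 to 6420 (median 4227) in control mice at 0 h, and neither passed by limma, although 2 were at an unadjusted p of 0.05 or lower. Of 6 striatal markers in NAC at 0 h, 1 was lower and none had a positive log2 fold change, the list summing to 16010 to 20920 (median 18380) in treated and 18980 to 21450 (median 20970) in control mice. At 8 h, 3 of 7 oligodendrocyte markers were higher in NAC, at 17390 to 21740 in treated and 14310 to 21830 in control mice in sum. Hba-a1 was lower at 8 h too, at 266.9 to 1098 in AMY and 307.9 to 1052 in NAC in treated mice, against 422.9 to 1743 and 569.6 to 2106 in control mice. Of 3 measured choroid plexus and meninges markers of 6, none was called in AMY at 0 h by limma (2 were at an unadjusted p of 0.05 or lower), and the list summed there to 1726 to 4076 in treated and 1437 to 3178 in control mice. In NAC at 0 h 1 of the 3 was higher (Kl), at 1221 to 2729 in treated and 1136 to 2763 in control mice in sum. At 8 h Ptgds was higher in AMY, by 1.02 ± 0.251 (adjusted p = 0.0327), the list summing to 1238 to 3267 in treated and 1018 to 1588 in control mice. In NAC at 8 h Ptgds and Kl were higher, Ptgds by 1.13 ± 0.21 (adjusted p = 0.00307) and the list summed to 1401 to 2849 in treated and 1038 to 1401 in control mice. Microglial markers were higher at 8 h too, 2 of 6 in AMY (1481 to 2006 in treated and 1325 to 1828 in control mice in sum) and 3 of 6 in NAC (1415 to 1776 in treated and 1303 to 1550 in control mice). In each of the remaining lists 0 to 2 measured markers were called in a region at 0 or 8 h. The part of these markers in the results for Jun and Egr1 was not tested.

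Fosb (probe ILMN_2778279, chr7:19302696-19310118), the source of the long-lived ΔFosB protein, rose at 8 h in PFC. Treated mice had 164.4 to 307.5 (median 218.8) and control mice 143.6 to 174.2 (median 160.4). Of the 8 treated mice, 6 lay above the highest control and all lay above the control median. The log2 fold change was 0.44 ± 0.1 (adjusted p = 0.0136), it passed with any single array left out (adjusted p = 0.00276 to 0.0294), and Fosb was 1 of 8 members called beside 5.72% of probes. In NAC 6 of 8 treated mice likewise lay above all controls, at 138.3 to 283.3 (median 168.8) in treated and 134.2 to 161.8 (median 148.7) in control mice, and the log2 fold change was 0.30 ± 0.106 (adjusted p = 0.0943). In AMY the values were 137.7 to 180.5 (median 148.6) in treated and 128.8 to 149.5 (median 134.3) in control mice, a log2 fold change of 0.17 ± 0.0515 (adjusted p = 0.0762). At 0 h the Fosb differences were -0.01 ± 0.0355 in AMY, -0.03 ± 0.0584 in NAC and -0.12 ± 0.0502 in PFC. Fosb intensities were not far above the array medians, and with background correction (normexp) the PFC difference was 0.726. In PFC at 8 h both measured red cell markers of 5, Hba-a1 and Alas2, were lower in treated mice, summing to 622.4 to 3505 in treated and 1743 to 4349 in control mice, and their part in the Fosb result was not tested.

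The other members at 8 h kept wide treated groups. Egr1 in PFC was 4722 to 9672 (median 7309) in treated and 4736 to 8298 (median 5453) in control mice, with 7 of 8 treated mice above the control median (log2 fold change 0.31 ± 0.146, adjusted p = 0.228). Egr2 in PFC was 147.8 to 467.7 (median 245.5) in treated and 164.8 to 274.6 (median 189.6) in control mice, and the treated group reached both above and below the control group (log2 fold change 0.37 ± 0.211, adjusted p = 0.347). Arc in PFC was 355.0 to 1119 (median 808.5) in treated and 527.6 to 986.7 (median 605.1) in control mice, with 3 treated mice above and 3 below all controls (log2 fold change 0.04 ± 0.246). The SD of log2 values was larger in treated than in control mice for 8 of 8 members at 0 h and 7 of 8 at 8 h in AMY, 8 and 8 in NAC and 8 and 8 in PFC, and for 3, 6 and 1 of 8 at 120 h in AMY, NAC and PFC. Over all probes the treated SD was the larger for 56.3% at 0 h, 56.8% at 8 h and 45.6% at 120 h in AMY, for 51.2%, 44.7% and 44.3% in NAC and for 64.4%, 57.4% and 56% in PFC, the times in that order. Members and regions were measured in the same mice and their deviations correlated (below), so the member counts are not separate observations.

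**Figure D2:**
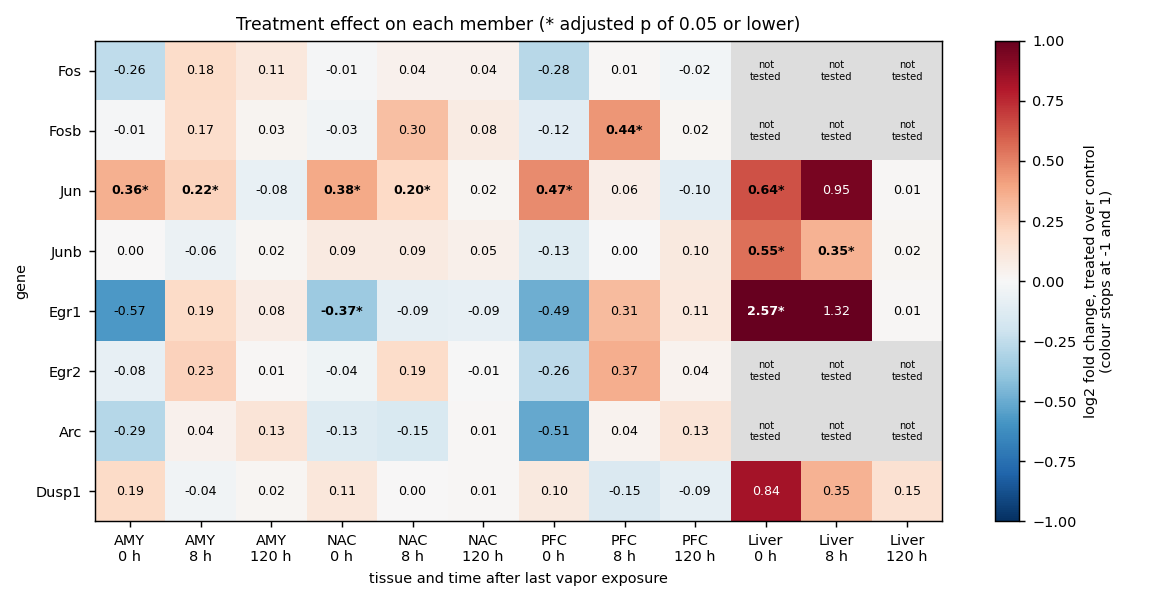
Log2 fold change of treated over control for each member (down) in each tissue and time (across), with an asterisk where the adjusted p was 0.05 or lower and grey where the probe did not pass the detection filter. Jun is positive in the 4 tissues at 0 h, at 0.36, 0.38, 0.47 and 0.64, while Egr1 is negative in the 3 brain regions and 2.57 in liver.

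Whether these effects changed with time was tested within each tissue in 1 fit of its 6 groups. That fit held 1 spread per probe, yet the groups differed in spread. The SD of log2 Egr1 in treated PFC was 0.576 at 0 h and 0.0701 at 120 h. For Jun in PFC the SD was 0.294 in treated mice at 0 h and 0.046 in control mice at 8 h. The SEs and p values below can therefore be too small where a difference holds the wide groups. The Jun effect was smaller at 120 h than at 0 h, the difference being -0.44 ± 0.0811 for AMY (adjusted p = 0.00196), -0.36 ± 0.0782 for NAC (adjusted p = 0.00802) and -0.58 ± 0.108 for PFC (adjusted p = 0.00416). The shares of probes whose effect differed between 120 and 0 h were 1.46% in AMY (Jun and Egr1, 2 of 8 members), 1.99% in NAC (Jun, 1 of 8) and 0.623% in PFC (Jun, 1 of 8). The Jun effect in PFC was already lower at 8 h than at 0 h (difference -0.41 ± 0.108, adjusted p = 0.021). For Egr1 the effect at 8 h exceeded that at 0 h by 0.76 ± 0.177 in AMY (adjusted p = 0.0276) and by 0.80 ± 0.221 in PFC (adjusted p = 0.0286), and that at 120 h exceeded that at 0 h by 0.65 ± 0.177 in AMY (adjusted p = 0.0448). For Fosb in PFC the effect at 8 h exceeded that at 0 h by 0.56 ± 0.105 (adjusted p = 0.001). Between 8 and 0 h, 1 of 8 members differed in AMY beside 0.524% of probes, and 3 of 8 in PFC beside 3.83%, of which 2 increased beside 1.69%. In NAC, 0 of 8 members passed for that difference by limma (2.46% of probes did), and 2 were at an unadjusted p of 0.05 or lower, beside 16% of probes.

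Tests of the effect between brain regions called no member, with a random block for the animal. At 0 h the probes called were 0.646% for NAC minus AMY, 0.336% for PFC minus AMY and 0.856% for PFC minus NAC, and at 8 h they were 0.00839%, 0.0839% and 0.52%. At an unadjusted p of 0.05, 1 of 8 members was below the threshold for PFC minus NAC at 0 h (beside 12.7% of probes), and 0 for NAC minus AMY (11.2%) and PFC minus AMY (13.9%). At 8 h 2 were for PFC minus AMY (8.57%), 1 for PFC minus NAC (12.2%) and 0 for NAC minus AMY (4.93%). For Jun the differences at 0 h were 0.02 ± 0.108 (NAC minus AMY), 0.11 ± 0.108 (PFC minus AMY) and 0.09 ± 0.108 (PFC minus NAC). For Fosb at 8 h the effect in PFC differed from that in AMY by 0.27 ± 0.124 (adjusted p = 0.543) and from that in NAC by 0.14 ± 0.124 (adjusted p = 0.706). The call for Fosb in PFC is therefore not shown to be particular to that region.

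The largest fold change of a member with treatment was that of Egr1 in liver at 0 h. It ran from 195.8 to 3308 (median 880.4) in the 8 treated livers and from 134.8 to 187.8 (median 149.8) in the 7 control livers. The groups did not overlap, and the log2 fold change was 2.57 ± 0.566 (adjusted p = 0.00584), a mean fold of 5.93. The treated livers were far from alike, 3 of them (mice 1, 9 and 57) having Egr1 at 3308, 2861 and 2773, and 2 (mice 31 and 47) at 195.8 and 260.6. Junb, which can restrain Jun within AP-1, was 155.3 to 258.7 (median 174.0) in treated and 120.5 to 133.3 (median 124.9) in control livers, also without overlap (log2 fold change 0.55 ± 0.0971, adjusted p = 0.00141). Jun was 118.4 to 286.9 (median 154.6) in treated and 108.6 to 119.5 (median 113.2) in control livers, with 7 treated livers above all controls (log2 fold change 0.64 ± 0.188, adjusted p = 0.0268). Dusp1 was 404.8 to 2089 (median 753.6) in treated and 444.9 to 587.7 (median 488.0) in control livers, with 7 treated livers above and 1 below all controls (log2 fold change 0.84 ± 0.285, adjusted p = 0.0504). Thus 3 of the 4 members tested in liver passed at 0 h, all higher, beside 20.4% of probes called in either direction and 8.66% called higher, and the 3 calls held with any single array left out. The Jun call was lost with no detection filter and in 1 fit of all 6 liver groups, and Dusp1 passed with normexp, with Grubbs outliers removed and in that fit. All 3 measured Kupffer cell markers of 6 (Marco, Vsig4 and Clec4f) were higher in treated livers, summing to 2007 to 3001 in treated and 1223 to 2435 in control livers, and both measured red cell markers were lower, summing to 536.3 to 2076 in treated and 2146 to 6063 in control livers. Of 5 measured endothelial markers 2 were higher, the list summing to 1048 to 1513 in treated and 854.2 to 970.0 in control livers. Their part in the liver results was not tested.

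The 4 members below the detection filter in liver differed from each other. Fos was above background on 8 of 8 treated and 1 of 7 control arrays at 0 h, 7 of 8 and 4 of 8 at 8 h, and 6 of 8 and 1 of 8 at 120 h. Its deposited intensity at 0 h was 105.1 to 186.6 in treated and 92.32 to 107.0 in control livers. Egr2 was above background on 7 of 8 treated and 2 of 7 control arrays at 0 h, 6 and 2 of 8 at 8 h, and 0 and 3 of 8 at 120 h. Fosb reached it on at most 2 arrays of a group. Arc, which is mainly a neuronal transcript, reached it on 0 of 47 liver arrays.

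**Figure D3:**
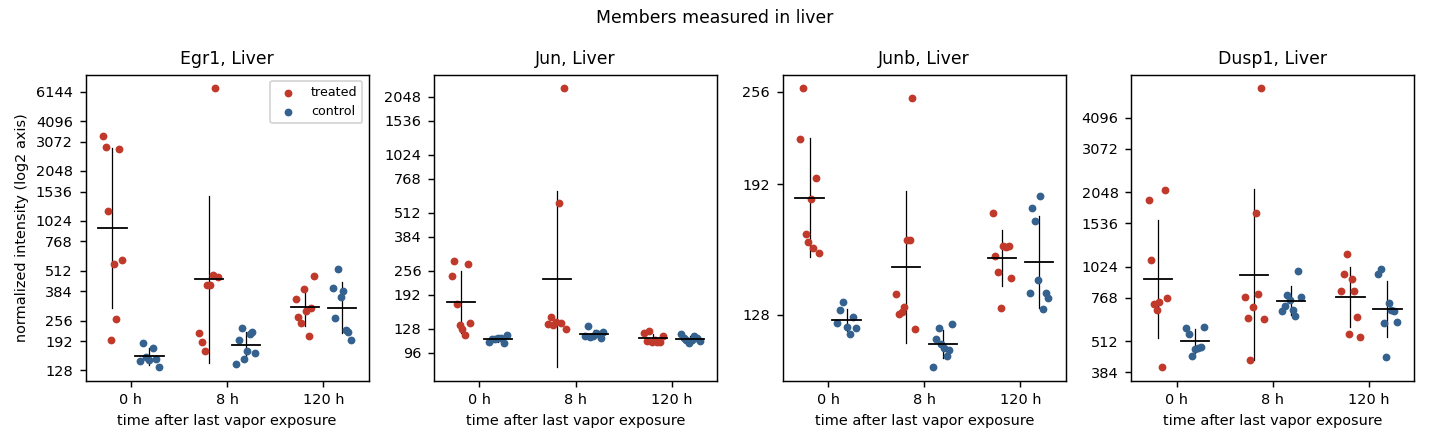
Normalized intensity (log2 axis, arbitrary units) of Egr1, Jun, Junb and Dusp1 in liver at 0, 8 and 120 h, 1 point per mouse, treated left of control, with the mean of the log2 values and 1 SD (n = 8 each, 7 controls at 0 h). Treated Egr1 and Junb points at 0 h lie above all control points, and a single treated mouse at 8 h stands at 6446 for Egr1 and 2257 for Jun.

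At 8 h Junb alone of the 4 passed in liver, beside 30.9% of probes, at 122.5 to 250.9 (median 133.8) in treated and 108.9 to 124.4 (median 116.2) in control livers (log2 fold change 0.35 ± 0.113, adjusted p = 0.0282). The call was lost without control mouse 44 (log2 fold change 0.33, adjusted p = 0.051). Treated mouse 59 was the highest of its group for all 4 members, with 6446 for Egr1, 2257 for Jun, 250.9 for Junb and 5392 for Dusp1. With that mouse, Egr1 was 167.2 to 6446 (median 420.1) in treated and 140.7 to 229.7 (median 180.9) in control livers, and its log2 fold change was 1.32 ± 0.546 (adjusted p = 0.0774). Without it, the Egr1 value was 0.77 ± 0.234 (adjusted p = 0.0208), the Junb value 0.24 ± 0.0595 (adjusted p = 0.00682), the Jun value 0.48 ± 0.252 against 0.95 ± 0.489 with it, and the Dusp1 value -0.01 ± 0.202 against 0.35 ± 0.377, so that 2 of 4 members passed, beside 29.9% of probes in that fit. Kupffer markers were again 3 of 3 higher, at 2060 to 3143 in treated and 1339 to 2197 in control livers in sum, and red cell markers 2 of 2 lower, at 401.6 to 2457 in treated and 1181 to 4510 in control livers, and their part was not tested. At 120 h the Egr1 medians were 298.4 in treated and 310.4 in control livers. The effect at 120 h was below that at 0 h for Egr1 (difference -2.56 ± 0.697, adjusted p = 0.0101) and Junb (difference -0.53 ± 0.145, adjusted p = 0.0105), 2 of 4 members, both lower, beside 15.4% of probes in either direction and 6.77% lower. Between 8 and 0 h, 0 of 4 members passed by limma, none was at an unadjusted p of 0.05 or lower (18.8% of probes were), and 4.92% of probes passed.

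The liver effect was set against the mean effect of the 3 brain regions of the same mice. The fit held 1 spread per probe for all 4 tissues. Yet the within-group SD of Egr1 was 0.999 in liver and 0.239 to 0.329 in the brain regions. Jun and Dusp1 also varied more in liver, so the SEs and p values below are too small for Egr1, Jun and Dusp1. At 0 h it was higher by 3.04 ± 0.369 for Egr1 (adjusted p = 1.28e-09), by 0.70 ± 0.186 for Dusp1 (adjusted p = 0.00206) and by 0.56 ± 0.101 for Junb (adjusted p = 1.08e-05), 3 of 4 members, where 38.7% of probes differed in either direction and 20% were higher. The Jun difference was 0.23 ± 0.131 (adjusted p = 0.163). At 8 h it was 0.79 ± 0.294 for Jun (adjusted p = 0.0267) and 1.18 ± 0.339 for Egr1 (adjusted p = 0.00394), 2 of 4 members beside 39.1% in either direction and 20.2% higher. Both 8 h values rest in part on treated mouse 59: without its liver array the Jun difference was 0.32 ± 0.154 (adjusted p = 0.097) and the Egr1 difference 0.64 ± 0.186 (adjusted p = 0.00438), so that 1 of 4 members passed beside 37.8% of probes. With the authors' processed values neither passed at 8 h, the Jun difference being 0.205.

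Control mice changed with time as well. In PFC 6 of 8 members were lower at 120 h than at 0 h, beside 24.6% of probes called in either direction and 12.5% called lower. Arc was 268.3 to 485.9 (median 377.2) at 120 h and 532.9 to 834.3 (median 606.3) at 0 h, which did not overlap (log2 difference -0.79 ± 0.147, adjusted p = 0.000506). Egr2 differed by -0.52 ± 0.104 (adjusted p = 0.000881), Junb by -0.49 ± 0.0991 (adjusted p = 0.000955), Fos by -0.46 ± 0.155 (adjusted p = 0.0304), Dusp1 by -0.39 ± 0.0799 (adjusted p = 0.00104) and Fosb by -0.16 ± 0.0456 (adjusted p = 0.013). The Egr1 difference was -0.25 ± 0.106 (adjusted p = 0.0861) and the Jun difference -0.08 ± 0.0606. The Fosb call was lost with median scaling, under which Egr1 passed instead (-0.43, adjusted p = 0.000856) and 55.7% of all probes were called. Of 5 measured endothelial markers, 3 were lower in the same comparison, the list summing to 1773 to 2288 at 120 h and 1957 to 2405 at 0 h, and 2 of 7 neuronal markers were lower, at 26590 to 28540 at 120 h and 28490 to 30290 at 0 h in sum. Their part was not tested. The median over the 8 members was -0.428, beside 0.000643 over all probes.

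In NAC the log2 difference of 120 over 0 h was below 0 for each of the 8 members, and 7 of 8 were at an unadjusted p of 0.05 or lower, beside 21.7% of probes in either direction and 10.5% lower. Egr2 alone passed (-0.26 ± 0.0469, adjusted p = 0.00137), 1 of 8 beside 5.74% of probes. In that comparison 2 of 7 oligodendrocyte markers were lower, at 16390 to 20320 at 120 h and 15610 to 23140 at 0 h in sum, and 2 of 7 thalamic markers higher, at 1456 to 1839 at 120 h and 1399 to 1637 at 0 h. In AMY Dusp1 passed (-0.17 ± 0.054, adjusted p = 0.0384), 1 of 8 beside 11.6%, and Arc and Fos differed by -0.27 ± 0.0935 (adjusted p = 0.0622) and -0.24 ± 0.0815 (adjusted p = 0.0523). Markers of AMY moved as well: 2 of 6 amygdala markers were higher, at 2136 to 2391 at 120 h and 1886 to 2162 at 0 h in sum, 3 of 4 cortical excitatory markers were higher, at 1528 to 2210 (median 1734) at 120 h and 1233 to 1658 (median 1391) at 0 h, and 1 of 3 choroid plexus and meninges markers was lower, at 1104 to 1374 at 120 h and 1437 to 3178 at 0 h. Of 8 astrocyte markers 2 were higher and 4 lower, the list summing to 14530 to 15690 at 120 h and 13280 to 14970 at 0 h. Their part in the NAC and AMY results was not tested. In liver the direction was the opposite: Egr1 rose by 0.97 ± 0.17 (adjusted p = 6.05e-05), Dusp1 by 0.44 ± 0.128 (adjusted p = 0.00735) and Junb by 0.26 ± 0.0647 (adjusted p = 0.00223), 3 of 4 members beside 45.5% of probes in either direction and 23.5% higher. Liver markers moved in the same comparison. Both measured red cell markers were higher, at 4963 to 13350 at 120 h and 2146 to 6063 at 0 h in sum, as were 3 of 5 endothelial markers, at 999.4 to 1106 at 120 h and 854.2 to 970.0 at 0 h. Of 8 hepatocyte markers 4 were higher and 2 lower, the list summing to 133200 to 139400 at 120 h and 120700 to 131800 at 0 h, and 2 of 3 Kupffer markers were lower, at 1099 to 1455 at 120 h and 1223 to 2435 at 0 h. Their part was not tested. At 8 h against 0 h, Jun in AMY rose by 0.18 ± 0.0557 (adjusted p = 0.0379), 1 of 8 beside 9.98%, and Dusp1 in liver by 0.54 ± 0.128 (adjusted p = 0.00601), 1 of 4 beside 12.9%. None of the 8 passed by limma in NAC (11% of probes did) or PFC (3.72%), where 2 (beside 27.3% of probes) and 1 (beside 18.7%) were at an unadjusted p of 0.05 or lower. In AMY 3 of 4 cortical excitatory markers were higher at 8 h, at 1398 to 2032 at 8 h and 1233 to 1658 at 0 h in sum, and 4 of 7 oligodendrocyte markers were lower and 1 higher, at 15160 to 17720 at 8 h and 15970 to 19790 at 0 h, and their part in the Jun value was not tested. Time after exposure and any difference in hour of day or day of dissection between the time points cannot be told apart.

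**Figure D4:**
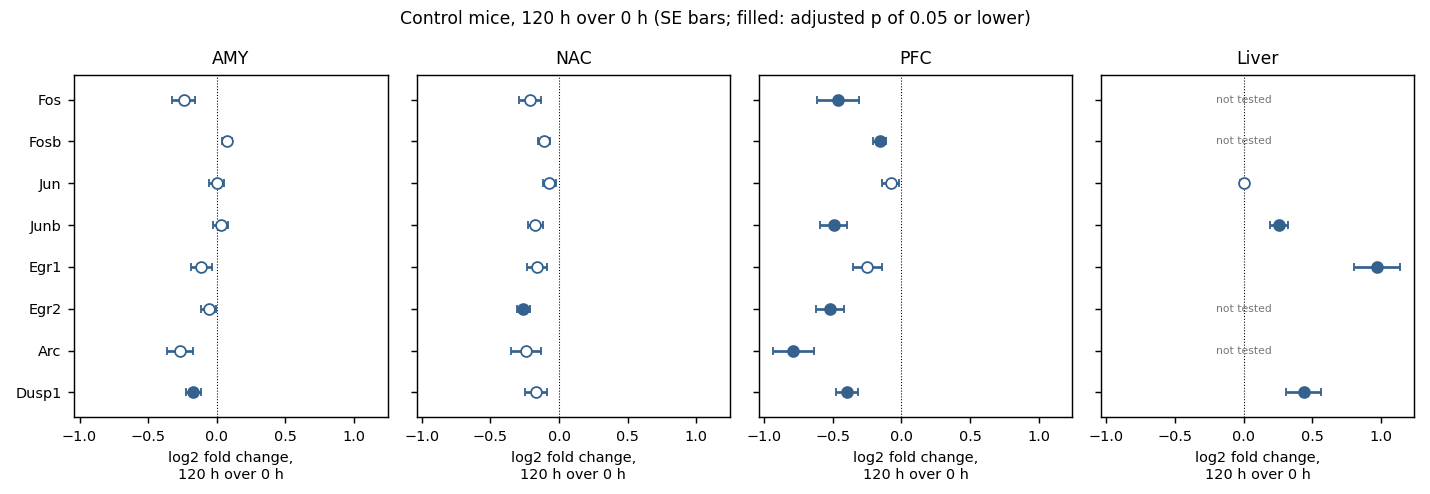
Log2 fold change in control mice at 120 h over 0 h for each member in AMY, NAC, PFC and liver, with SE bars (n = 8 each, 7 at 0 h in liver), filled where the adjusted p was 0.05 or lower. In PFC 6 members are filled and left of 0, with Arc at -0.79, and in liver 3 are filled and right of 0, with Egr1 at 0.97.

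In control mice the group medians of a brain region lay highest in PFC for Egr1 (4536 to 5921 over the 3 times, against 3187 to 3600 in NAC and 2576 to 2679 in AMY), Arc (377.2 to 606.3, 207.4 to 279.4 and 217.6 to 279.6), Dusp1 (768.2 to 1015, 486.7 to 569.1 and 432.9 to 490.2) and Fos (254.8 to 392.3, 125.3 to 150.4 and 159.9 to 185.9), in the same order. PFC medians were also the highest for Egr2 (156.3 to 221.1, 127.6 to 151.5 and 121.0 to 123.3) and Fosb (153.2 to 163.6, 136.3 to 149.2 and 128.6 to 134.3), again in that order. Jun and Junb had no such order: Jun lay at 214.0 to 237.4 in PFC, 151.7 to 159.1 in NAC and 198.9 to 227.0 in AMY, and Junb at 235.3 to 345.2 in PFC, 263.6 to 294.9 in NAC and 244.8 to 248.6 in AMY. In the liver Egr1 lay at 149.8 to 310.4 and Jun at 113.2 to 118.4. Tissues were normalized separately, so this order was not tested, and the AMY and NAC ranges of Arc and of Dusp1 overlap.

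Mice of 1 group differed widely in most of these genes. The within-group SD on the log2 scale was 0.281 in AMY, 0.314 in NAC and 0.436 in PFC for Arc, and 0.266, 0.259 and 0.434 for Fos, in that order of regions, above 99.4% to 99.7% of probes, whose median SD was 0.0814, 0.0762 and 0.0901. Jun was among the steadier members, at 0.119, 0.115 and 0.159, above 86.8% to 91.9% of probes. Fosb was at 0.0895, 0.163 and 0.154, above 62.8%, 97% and 90.7% of probes. In liver Egr1 had an SD of 0.999, above 99.9% of probes, and Junb one of 0.207, above 84.7%.

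Deviations of the members from their group means were set against each other. After removal of group means, 24 of 28 pairs of members correlated in AMY, 21 of 28 in NAC, 21 of 28 in PFC and 5 of 6 in liver (Benjamini-Hochberg over 90 pairs, both Pearson and Spearman at 0.05 or lower, 100000 permutations within groups, two-sided). The test was not run on all pairs of probes. As a description, the weakest member pair that passed had an r of 0.344 (AMY), 0.629 (NAC), 0.413 (PFC) or 0.724 (liver), and 8.48% (AMY), 0.114% (NAC), 6.16% (PFC) and 0.42% (liver) of all pairs of probes were at least as far from 0. The median r over member pairs was 0.649 (AMY), 0.74 (NAC), 0.646 (PFC) and 0.74 (liver), and 0.109% (AMY), 0.0148% (NAC), 0.227% (PFC) and 0.211% (liver) of all pairs reached it. Fos and Arc reached r = 0.918 in NAC (Spearman 0.864, permutation p = 1e-05 for both, adjusted 2.25e-05 and 3.21e-05, over 48 arrays), where 1e-05 is the smallest p the permutations can give, and r was 0.889 without the 2 farthest arrays. Such arrays were picked by distance from the median for a single gene of the pair. Of the 7 pairs that hold Jun, 4 passed in AMY (with Fosb, Egr2, Arc and Dusp1, at r = 0.344 to 0.434), 0 in NAC, where r ran from 0.00782 to 0.325, and 0 in PFC, where r ran from -0.401 to 0.14, while 3 of 3 passed in liver. Its correlation with Egr1 was 0.14 in AMY, 0.00782 in NAC and -0.401 in PFC (adjusted permutation p = 0.491, 0.976 and 0.0707), whereas in liver it was 0.761 (adjusted permutation p = 0.000664). The Spearman value in liver was lower, at 0.465 (adjusted permutation p = 0.00799), and r there was 0.685 without 2 arrays. The liver arrays include treated mouse 59, the highest of its 8 h group for each member tested there.

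Animal numbers are shared by the tables of the 4 tissues, so that a mouse can be followed from one tissue to another. Of 24 relations of 1 member between 2 brain regions, 20 passed. The other 4 were Jun and Fosb for AMY with PFC, Jun for AMY with NAC and Fosb for NAC with PFC. The same relations were not tested over all probes, so such agreement between regions is not shown to be particular to these genes. Arc in AMY correlated with Arc in PFC at r = 0.825 over 48 mice (Spearman 0.817, permutation p = 1e-05 for both, adjusted 2.4e-05 and 4e-05, r = 0.813 without the 2 farthest mice). The farthest mice were picked by distance from the median in a single region of the pair. For Egr1 the same pair of regions gave r = 0.817 (Spearman 0.704, permutation p = 1e-05 and 2e-05, adjusted 2.4e-05 and 5.14e-05, 0.737 without 2 mice) and for Egr2 r = 0.856 (Spearman 0.778, permutation p = 1e-05 for both, 0.839 without 2 mice). Jun gave r = 0.204 for that pair (Spearman 0.11, adjusted permutation p = 0.398 and 0.604) and 0.0963 for AMY with NAC (Spearman 0.0413, adjusted permutation p = 0.73 and 0.841), but for NAC with PFC it gave 0.493 (Spearman 0.402, permutation p = 0.00285 and 0.0104, adjusted 0.0054 and 0.0188, 0.374 without 2 mice). Fosb gave r = 0.301 for AMY with PFC (Spearman 0.289, adjusted permutation p = 0.268 and 0.142), 0.577 for NAC with PFC (Spearman 0.273, adjusted permutation p = 0.0247 and 0.143) and 0.503 for AMY with NAC (Spearman 0.554, adjusted permutation p = 0.0169 and 0.000512). Between brain and liver, 12 relations of Jun, Junb, Egr1 and Dusp1 ran from -0.318 to 0.317, and none passed after adjustment over 36 relations. Deviations were pooled over groups of unequal spread, and a relation within a single group was not tested. For Egr1 in PFC and liver r was -0.113 over 47 mice (Spearman -0.143, adjusted permutation p = 0.776 and 0.543).

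**Figure D5:**
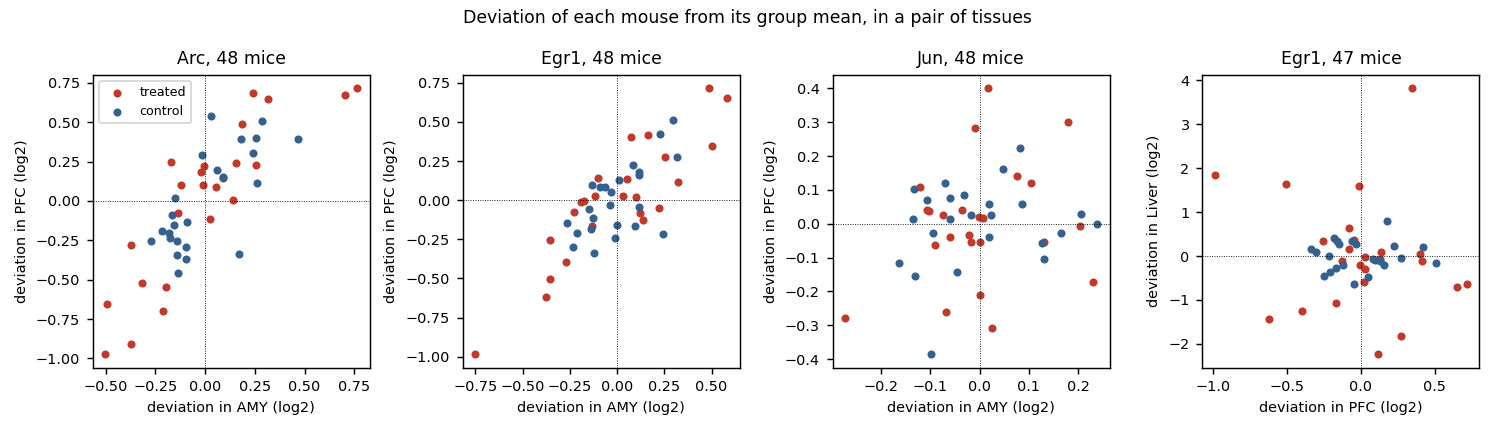
Deviation of each mouse from its group mean (log2) in a pair of tissues, for Arc, Egr1 and Jun in AMY and PFC (48 mice each) and Egr1 in PFC and liver (47 mice). Arc and Egr1 points follow a rising line between the brain regions (r = 0.825 and 0.817), while Jun for this pair (r = 0.204) and Egr1 against liver (r = -0.113) do not.

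The genes whose deviations were most like the mean of the standardized members belonged in part to the same class. Over 48 arrays Egr4 led in AMY (r = 0.813), NAC (r = 0.867) and PFC (r = 0.828), with Npas4 at 0.688 in AMY and 0.813 in PFC, Dusp6 at 0.722 in AMY and 0.754 in PFC, Midn at 0.757, 0.702 and 0.777 in AMY, NAC and PFC, Per1 at 0.761 in PFC, Rasl11a at 0.772 in AMY, and Shisa2, Nptx2 and Fastkd5 at 0.804, 0.715 and 0.713 in NAC. In liver the 5 most alike over 47 arrays were Ppp1r15a (r = 0.942), Ddit3 (r = 0.907), Brd2 (r = 0.897), Klf6 (r = 0.877) and Piga (r = 0.873). Those arrays include treated mouse 59, and no value without it is given. Ppp1r15a and Ddit3 are known genes of the integrated stress response. These values describe likeness and were not tested.

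A list of 47 other immediate early genes had 22 measured in liver, 30 in PFC and 28 each in AMY and NAC. At 0 h 1 rose and 1 fell in AMY, 0 passed in NAC by limma (6 of 28 were at an unadjusted p of 0.05 or lower, beside 22.8% of probes), 1 rose and 2 fell in PFC, and 7 rose and 2 fell in liver, where 3.88% (AMY), 7.3% (NAC), 1.48% (PFC) and 20.4% (liver) of all probes were called. At 8 h 2 rose in AMY, 5 in NAC and 5 in PFC with none lower, while 8 rose and 3 fell in liver, beside 2.88% (AMY), 6.94% (NAC), 5.72% (PFC) and 30.9% (liver) of all probes. Sgk1, a glucocorticoid-induced kinase, led at 8 h, by 1.19 ± 0.179 for AMY (limma, adjusted p = 0.00142), by 1.02 ± 0.124 for NAC (0.000132 after adjustment) and by 0.61 ± 0.0911 for PFC (0.00116 after adjustment). In PFC at 8 h Homer1, a synaptic scaffold, rose by 0.28 ± 0.0576 (adjusted p = 0.00765) and Gadd45g by 0.31 ± 0.0607 (adjusted p = 0.00698). In liver at 0 h Csrnp1 (0.84 ± 0.163, adjusted p = 0.00259), Dusp6 (0.74 ± 0.185, adjusted p = 0.0115), Ier3 (0.32 ± 0.0804, adjusted p = 0.0115) and Klf2 (0.30 ± 0.0507, adjusted p = 0.000987) rose, where Dusp6, an ERK phosphatase, fell in PFC at the same time (-0.27 ± 0.0602, adjusted p = 0.0312). The list's median log2 fold change at 8 h was 0.0866 in AMY, 0.0507 in NAC and 0.062 in PFC, beside -0.00393, -0.0034 and -9.67e-05 over all probes.

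Of 32 upstream kinases and factors, 10 were measured in liver, 15 in PFC, 16 in NAC and 14 in AMY. At 0 h 1 rose and 1 fell in NAC (beside 7.3% of all probes) and in liver (beside 20.4%), and at 8 h 0 passed in NAC by limma (3 of 16 at an unadjusted p of 0.05 or lower, beside 22.4% of probes) and 1 fell in liver (beside 30.9%). Srf, the serum response factor, fell in NAC at 0 h (-0.21 ± 0.0612, adjusted p = 0.043) and rose in liver (0.30 ± 0.0834, adjusted p = 0.0192). Prkaca, a catalytic subunit of protein kinase A, rose in NAC at 0 h (0.18 ± 0.0379, adjusted p = 0.00926) and fell in liver at 0 h (-0.45 ± 0.124, adjusted p = 0.0196). In AMY 0 passed by limma at 0 h and 0 at 8 h (1 and 2 of 14 at an unadjusted p of 0.05 or lower, beside 20.2% and 15.8% of probes), and in PFC 0 and 0 (3 and 3 of 15, beside 17.8% and 20.6%). Among AP-1 partners and EGR corepressors, Batf3 rose in PFC at 0 h (0.36 ± 0.0358, adjusted p = 4.8e-05) and Jdp2, an AP-1 repressor, at 8 h (0.42 ± 0.0915, adjusted p = 0.0105), 1 of 9 measured at each time beside 1.48% and 5.72% of all probes, and Mafg rose in liver at 0 h (0.26 ± 0.0812, adjusted p = 0.0368) and 8 h (0.35 ± 0.0856, adjusted p = 0.00584), with Atf4 at 0 h and Atf2 at 8 h making 2 of 5 measured at each time, beside 20.4% and 30.9% of all probes. Of 8 measured genes of ERK feedback, Dusp4 (0.25 ± 0.0635, adjusted p = 0.0256), Dusp14 (0.18 ± 0.0455, adjusted p = 0.0282) and Dusp3 (0.15 ± 0.0437, adjusted p = 0.0489) rose in PFC at 8 h, 3 of 8 beside 5.72% of all probes. At 120 h 0 genes of the 4 lists passed in any tissue by limma, and 0 to 2 genes of a list were at an unadjusted p of 0.05 or lower in each tissue.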

How the data were processed

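Expression was measured on Illumina MouseRef-8 v2 BeadChips, 1 array per mouse and tissue. The authors deposited non-normalized probe intensities with a detection p-value for each probe and array, and a table of processed log2 values, made by the authors with lumi (version not given in the sources used here) by variance stabilization and quantile normalization. From the deposited intensity, log2 values were quantile normalized within each tissue, and a probe was kept where over 80% of a tissue's arrays had it above background (detection p up to 0.05). Treated and control mice were compared at each time with limma 3.58.1 in R 4.3.3, with Benjamini-Hochberg adjustment over all kept probes and a threshold of 0.05. Effects were compared between times in 1 fit of the 6 groups of a tissue, and between tissues with the animal as a random block (statmod 1.5.0, consensus correlation 0.138 at 0 h and 0.095 at 8 h in brain). The number of arrays limits the precision. The scripts were tested on simulated data.

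The members and gene lists were chosen with earlier results of these data known. Of the members, every annotated probe was named. Of each other list, up to 4 genes of smallest p among those past the threshold were named, and for likeness the 5 genes of highest correlation in a tissue. The AP-1-like promoter element was added after the Jun promoter had been seen. The alternatives were median scaling, normexp background correction (offset 16), a detection share of 50%, no detection filter, removal of Grubbs outliers, array weights, all 6 groups in 1 fit, no animal block, the authors' processed log2 values, and each array left out in turn. Not every alternative was run for every comparison. The labels give a larger accumbens punch than the methods. Promoter sequences came from RefSeq, build GRCm38.p6, and 7 of the 10 members matched.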

Additional observations from a re-analysis of the deposited data

Results flagged for a closer look

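A single mouse stood apart from its group of 8 or 7 in 10 of 168 groups tested, where about 1 in 20 would by chance. The gap to the nearest mouse, as a share of the range of the group, was 0.71 for Egr1 and 0.616 for Junb in treated liver at 8 h, both times in mouse 59. It was 0.559 for Junb in treated AMY at 0 h (mouse 65, high), 0.544 for Dusp1 in treated AMY at 120 h (mouse 7, low), 0.566 for Egr1 in treated NAC at 120 h (mouse 23, low), 0.537 for Arc in treated PFC at 120 h (mouse 7, low) and 0.56 for Dusp1 in treated PFC at 0 h (mouse 31, low). In control groups it was 0.538 for Junb in NAC at 8 h (mouse 44, low), 0.532 for Jun in liver at 8 h (mouse 10, high) and 0.535 for Dusp1 in liver at 8 h (mouse 60, high).

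The treatment effect differed between times, by limma on the difference itself, for Egr1 in AMY (0.763 for 8 minus 0 h and 0.649 for 120 minus 0 h), Jun in AMY (-0.435 for 120 minus 0 h), Jun in NAC (-0.36 for 120 minus 0 h), Fosb in PFC (0.56 for 8 minus 0 h), Jun in PFC (-0.408 for 8 minus 0 h and -0.575 for 120 minus 0 h), Egr1 in PFC (0.801 for 8 minus 0 h), and in liver for Junb (-0.531) and Egr1 (-2.56), both for 120 minus 0 h. The fits between times held 1 spread per probe over 6 groups of unequal spread, so their p values can be too small. The liver effect exceeded the mean brain effect at 0 h for Egr1 (3.04), Dusp1 (0.699) and Junb (0.562), and at 8 h for Egr1 (1.18) and Jun (0.791). These fits held 1 spread per probe over liver and brain, so their p values are too small for Egr1, Jun and Dusp1. Without the liver array of mouse 59 the 8 h values were 0.64 for Egr1 (adjusted p = 0.00438) and 0.32 for Jun (adjusted p = 0.097), so the Jun call was lost.

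Below the detection filter of liver, Fos was above background on 8 treated arrays at 0 h, 7 at 8 h and 6 at 120 h, against 1, 4 and 1 control arrays, and Egr2 on 7 treated arrays at 0 h and 6 at 8 h, against 2 and 2 control arrays.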

How the results depend on the processing

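Over 252 member effects, 39 passed the threshold, 27 of these under each alternative run for them, and none of the 39 changed sign. Normexp, changed detection filters, Grubbs removal, array weights and the fit of all 6 groups were run for treated against control only. Differences between times or tissues and changes in control mice had fewer alternatives. Arrays were left out in turn for calls of treated against control only. A further 14 passed under some alternative only, and of 199 that never passed, 21 changed sign somewhere. The causes were not tested. Counts of members past the threshold that differed by over 1.5 times, and liver at 0 h in full, were as follows, with the share of all probes called in that fit. For AMY at 0 h the count was 2, in place of 1, with normexp (3.5% of probes), with Grubbs outliers removed (5.54%), with array weights (6.01%) and with all 6 groups in 1 fit (6.78%), the added gene being Egr1, where 3.88% were called as reported. For AMY at 8 h it was 2, in place of 1, with Grubbs outliers removed (3.37%) and with all 6 groups (4.01%), adding Fosb, beside 2.88% as reported. For NAC at 0 h it was 1, in place of 2, with median scaling (6.72%) and with no detection filter (2.71%), beside 7.3%. For NAC at 8 h it was 0, in place of 1, with no detection filter (2.85%) and with processed values (7.75%), and 2 with all 6 groups (8.5%), beside 6.94%. For PFC at 0 h it was 0, in place of 1, with no detection filter (0.553%, beside 1.48%). For liver at 0 h it was 5, in place of 3, with no detection filter (7.01% of probes, beside 20.4%), where more probes are tested and Arc, detected on 0 arrays, was among the 5 (-0.06 ± 0.0165, adjusted p = 0.0366), and 4 with a detection share of 50% (19%), with normexp (20.9%) and with Grubbs outliers removed (21.5%), the last 2 adding Dusp1 (adjusted p = 0.0504 as reported). With all 6 groups (34.5%) it was 3, with Dusp1 in and Jun out. For liver at 8 h it was 2, in place of 1, with normexp (31.3%), Grubbs outliers removed (32.8%), processed values (31.8%), or without treated mouse 59 (29.9%, chosen after seeing the data), 3 with all 6 groups (29.7%) and 0 with no detection filter (11.8%), beside 30.9%. The effect difference of 120 minus 0 h in AMY gave 1, in place of 2, with median scaling (1.14%, beside 1.46%), that of 8 minus 0 h in liver gave 1, in place of 0, with processed values (5.55%, beside 4.92%), and liver minus brain at 8 h gave 0, in place of 2, with processed values (36.2%, beside 39.1%), and 1 (Egr1) without mouse 59 (37.8%). In controls, median scaling gave 2, in place of 1, for AMY at 8 h (14.8%, beside 9.98%) and at 120 h (12%, beside 11.6%) over 0 h, and 1, in place of 0, for NAC at 8 h over 0 h (20.2%, beside 11%), and processed values gave 2, in place of 1, for NAC at 120 h over 0 h (6.47%, beside 5.74%).

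Replicate numbers of the titles were not shown to pair the mice, nor was pairing excluded. The correlation of same-numbered treated and control arrays ran from -0.34 to 0.565 over the groups, with group medians of -0.229 to 0.186. No values for differently numbered arrays are set beside these, so they cannot decide it. The replicate block, added after seeing the data and fitted on processed values, gave 0 members for AMY at 8 h (2.08% of probes), NAC at 8 h (6.01%), PFC at 0 h (0.962%) and liver at 8 h (26.9%), 2 in place of 3 for liver at 0 h (14%, Jun lost, also with the numbers of the descriptions, 12.9%), 2 for PFC at 8 h (6.45%, Egr1 added), 5 in place of 6 for PFC controls at 120 h over 0 h (24%, Fos lost, adjusted p = 0.054), 0 for AMY controls (12.2%) and 2 for NAC controls (6.18%) at 120 h over 0 h, and 1 for liver minus brain at 8 h (36.4%). With single arrays left out, log2 fold changes ran from 0.3265 to 0.3979 for Jun in AMY at 0 h, 0.1931 to 0.2457 at 8 h, 0.3423 to 0.4084 in NAC at 0 h, 0.177 to 0.2304 at 8 h and 0.4145 to 0.516 in PFC at 0 h, from -0.4285 to -0.3083 for Egr1 in NAC, from 0.3736 to 0.5027 for Fosb in PFC at 8 h, and in liver from 0.5365 to 0.719 for Jun, 0.4792 to 0.5843 for Junb and 2.304 to 2.886 for Egr1 at 0 h, and 0.2389 to 0.3867 for Junb at 8 h. Low signal over background limits Fosb, Egr2, in NAC Fos and Jun, and in liver Jun, Junb and the control level of Egr1. Control medians at 0 h were 158.2 for Jun in NAC and 149.8 for Egr1 in liver.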
